A study of Homo sapiens with 13 samples.

Results

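Immediate-early growth response genes and MYC were followed in chromatin accessibility data from T98G cells, an established human glioblastoma line. The 10 genes EGR1, EGR2, EGR3, IER2, IER3, MYC, DUSP1, NR4A1, NR4A3 and ZFP36 were taken by name, and every accessible region (peak) overlapping a gene body extended by 10 kb on each side was assigned to that gene. This gave 36 of the 129347 peaks in the table, at 9 of the 10 genes. A peak overlapping an annotated transcript start of its own gene was called a TSS peak (11 peaks), and every other peak was called a flanking peak (25 peaks).

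Accessibility was measured by ATAC-seq, in which the Tn5 transposase inserts sequencing adapters into open DNA, so that reads pile up where chromatin is accessible. The study followed proteins and accessibility on chromatin through the cell cycle, and the comparison made here asks how accessibility at these loci in M-phase relates to that in G1. G1 cells (3 libraries) had been serum starved for 72 h. M-phase cells (3 libraries) had been starved for 48 h and released for 36 h into medium that contained serum and nocodazole. Nocodazole arrests cells in mitosis, and these cells were collected by shaking. Release from starvation, nocodazole and cell cycle phase therefore changed together, and their effects cannot be told apart, nor can that of the sequencing platform, since G1 libraries were run on a HiSeq only and M-phase libraries on a HiSeq and a NextSeq. Nothing states that the replicates came from separate cultures, so p-values measure the spread between these libraries.

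Immediate-early genes are the first genes transcribed when a growth signal reaches a resting cell, and no new protein is needed to switch them on. Serum acts largely through ERK kinases, which phosphorylate ternary complex factors bound with the serum response factor SRF at CArG boxes, and through CREB bound at cyclic AMP response elements (CRE). Some of the induced proteins are transcription factors (the EGR zinc fingers, the NR4A nuclear receptors and MYC), whereas others shut the response down again (DUSP1, a phosphatase of MAP kinases, and ZFP36, which destabilizes AU-rich mRNAs). Accessibility is not a measure of transcription, and no RNA was measured in these libraries.

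Short elements through which such genes are known to respond were searched for before their starts. A CArG box (a CC, a run of A or T, and a GG) was present in the 300 bases before the main start of EGR1, EGR2 and EGR3 on either strand, against 1.4% of 19881 protein-coding promoters of the same length. A CRE (TGACGTCA) and an E-box (CACGTG, the letters bound by MYC with MAX) stood before DUSP1 alone, against 2.57% and 8.89% of promoters. The AP-1 (TGACTCA), EGR (GCGTGGGCG) and ETS (CCGGAAGT) letters, present in 3.59%, 1.19% and 5.35% of promoters, were in none of the 10 windows. A match describes letters and not binding.

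The windows printed here show these elements in the TSS peaks of EGR1, EGR2, DUSP1 and IER2. All are hg19 sequence written 5′ to 3′ on the strand of the gene, with CArG boxes, CRE and E-box in capitals. The first EGR1 window, chr5:137800738-137800887 on the plus strand, holds CArG boxes that begin 418, 380 and 364 bases before the start, and the second, chr5:137801018-137801167, holds those at 105 and 83 bases. The EGR2 window is chr10:64576127-64576276 on the minus strand, with its CArG box at 71 bases. The DUSP1 window is chr5:172198199-172198348 on the minus strand, with the CRE at 125 and the E-box at 108 bases. For IER2 the window before its internal start is given, chr19:13262639-13262788 on the plus strand. It lies inside the gene, downstream of the main start, and has a CArG box at 121 bases.
EGR1 distal: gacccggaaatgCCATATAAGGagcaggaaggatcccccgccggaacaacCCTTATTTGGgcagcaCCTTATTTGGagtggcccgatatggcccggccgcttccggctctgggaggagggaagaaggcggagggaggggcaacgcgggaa
EGR1 proximal: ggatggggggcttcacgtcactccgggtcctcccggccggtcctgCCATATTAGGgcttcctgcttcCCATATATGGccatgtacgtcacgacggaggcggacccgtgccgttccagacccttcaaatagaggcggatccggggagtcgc
EGR2: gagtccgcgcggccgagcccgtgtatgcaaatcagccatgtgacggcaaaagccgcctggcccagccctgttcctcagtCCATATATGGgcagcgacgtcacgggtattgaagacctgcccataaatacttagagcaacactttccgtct
DUSP1: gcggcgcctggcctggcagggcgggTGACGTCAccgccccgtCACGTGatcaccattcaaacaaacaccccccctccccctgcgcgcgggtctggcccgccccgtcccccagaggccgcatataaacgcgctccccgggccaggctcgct
IER2 internal start: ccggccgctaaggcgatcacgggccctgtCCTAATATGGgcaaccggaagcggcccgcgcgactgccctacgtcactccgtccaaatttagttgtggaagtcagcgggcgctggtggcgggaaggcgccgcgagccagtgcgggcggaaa

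The label of the cells was checked against marker genes by asking which had a TSS peak. Of 8 glial, neural stem and mesenchymal glioma markers, 5 had one (OLIG2, SOX2, VIM, CD44 and FN1), whereas GFAP, NES and S100B had none. Of 8 markers of blood, epithelium, endothelium, liver and muscle, 1 had one (EPCAM, an epithelial adhesion protein). EPCAM had 62.5 to 120.3 scaled counts, beside 5.8 to 16 for SOX2, 52.7 to 128 for OLIG2 and at least 143 for VIM, CD44 and FN1. The summed values in peaks ran from 4191845 to 5092426 scaled counts in the G1 libraries and from 5475345 to 6000423 in M-phase. The deposited values are scaled read counts, and the number of reads behind them is not stated. The study describes scaling to its smallest library. The smallest values above 0 were 1, 0.8 and 1 in G1 and 0.4, 0.4 and 0.5 in M-phase. Under such scaling, smaller steps would mean that the M-phase libraries were deeper. This was not tested, and an effect of depth could not be told apart from that of phase.

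In M-phase the TSS peaks of the group were mostly more accessible than in G1, the change being largest at IER2, DUSP1, MYC and ZFP36. Of the 11 TSS peaks, 8 were higher in M-phase and 0 were lower at an adjusted p under 0.05 (limma with Benjamini-Hochberg adjustment over all 73121 peaks tested). The median change was 0.87 on the log2(scaled count + 8) scale, which is used for every change below, with M-phase relative to G1. At transcript starts in general a rise was common, with 43.2% of 15500 TSS peaks of all genes called higher, 5.94% called lower and a median change of 0.39. In 8 of the 11 member peaks all M-phase libraries lay above all G1 libraries, which held for 48.5% of all TSS peaks. Among TSS peaks with a mean of at least 100 scaled counts the share called higher was 60.4%, and 7 of the 8 such member peaks were called higher. Among those with a mean of at least 500 it was 85.6%, and all 4 such member peaks (EGR1, DUSP1, IER2 and MYC) were called higher. For peaks this large the members' count is near the background. Of the 11 member TSS peaks 4 also overlapped the start of another gene, namely those of EGR1, DUSP1 and both of IER2.

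**Figure D1:**
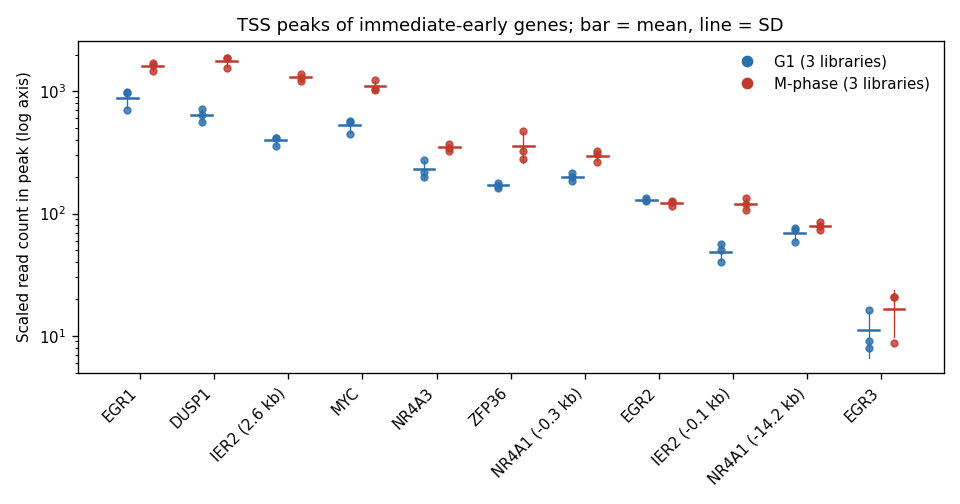
Scaled read count in each TSS peak (log axis), with 3 G1 libraries in blue and 3 M-phase libraries in red, horizontal bars at the mean and vertical lines of 1 SD. Kilobases in brackets give the distance of the peak's centre from the main start where a gene has several TSS peaks. The phases do not overlap for 8 of the 11 peaks, and overlap for EGR2, EGR3 and the NR4A1 peak 14.2 kb upstream.

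Of the early growth response factors, EGR1 alone had a TSS peak that passed the test, and differences between the genes were not tested. EGR1, the serum-responsive zinc finger factor, had a TSS peak of 2471 bp (chr5:137799625-137802095) covering its start and both printed windows. Its scaled counts were 968.3, 706.3 and 985 in G1 and 1463.3, 1651 and 1710.6 in M-phase. All M-phase libraries lay above all G1 libraries, the means being 887 ± 156 and 1608 ± 129 (SD, n = 3). The change of 0.87 (SE 0.14, adjusted p = 9.44e-07) was nevertheless at the lower edge for a peak this strong, since the 78 TSS peaks with means from 1024 to 2048 had a median of 1.24 and a lower quartile of 0.86. When the libraries were aligned by a loess curve on peak strength, which removes the overall rise of strong peaks, EGR1 turned to -0.39 (adjusted p = 1.5e-05). The TSS sum of EGR1 holds the same values. With the curve fitted over gene sums it was -0.14 (adjusted p = 0.163). The direction of EGR1 thus depended on the scaling, and the call of a fall depended on the features that were aligned.

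EGR2, a paralog of EGR1 best known from Schwann cell myelination, had no called change at its start. Its peak (chr10:64576098-64577160), which holds the printed CArG box, had scaled counts of 135.2, 128.9 and 126 in G1 and 123.6, 126.9 and 116 in M-phase. The phases overlapped, with means of 130.0 ± 4.7 and 122 ± 5.59 and a change of -0.08 (SE 0.20, adjusted p = 0.806). Only 22.2% of all TSS peaks had a smaller (more negative) change. For the summed TSS signal of the gene, scaling to equal totals and loess alignment gave a fall of -0.42 (adjusted p = 0.0319) and -0.48 (adjusted p = 0.0163). That sum is this single peak. Fitted among all peaks, the same settings gave -0.42 (adjusted p = 0.0543) and -0.37 (adjusted p = 0.11), neither of which passed.

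EGR3 had little signal at its own start. The TSS peak was only 128 bp long (chromosome 8, 22550875 to 22551002), with scaled counts of 8, 16.4 and 9 in G1 and 8.7, 20.6 and 20.7 in M-phase. The phases overlapped and the change of 0.35 (SE 0.29) did not pass the test (adjusted p = 0.414). Most of the signal at the locus was in a peak 1.7 kb upstream at the start of a long non-coding RNA, with 156.1, 189.8 and 238 in G1 and 209.7, 282.7 and 256.5 in M-phase. The CArG box before EGR3, 71 bases from the start, lies in neither peak, but the upstream peak holds another CArG box. At the upstream peak too the phases overlapped, and the change of 0.36 was not called (adjusted p = 0.155), although it reached 0.51 (adjusted p = 0.0169) without G1 replicate 3.

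The NR4A receptors, orphan nuclear receptors controlled mainly by their own abundance, had small changes at their starts whose calls depended on the scaling. NR4A3 had scaled counts of 217.7, 199.2 and 275 in G1 and 325.4, 369.2 and 346.9 in M-phase in its TSS peak (chr9:102583406-102584834). All M-phase libraries were above all G1 libraries, and the change of 0.58 (SE 0.18) passed the test (adjusted p = 0.0074). The call was lost without M-phase replicate 2 (0.54, adjusted p = 0.0722), with equal totals (0.24, adjusted p = 0.164) and under loess alignment (-0.05, adjusted p = 0.814). The NR4A3 flanking peak 2.0 kb upstream, at a non-coding RNA start, had 208.8, 174.2 and 276 in G1 and 380.6, 482.1 and 397 in M-phase. These values did not overlap either, and the change was 0.93 (SE 0.18, adjusted p = 1.88e-05), a call lost under loess alignment (0.26, adjusted p = 0.121).

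NR4A1 has annotated starts spread over a long 5′ region, and 2 of its 8 peaks lay at starts. The peak at the main start (chr12:52444266-52445614) had scaled counts of 185.9, 200.8 and 216 in G1 and 264.1, 304.9 and 323.4 in M-phase. The phases were apart, with a change of 0.55 (SE 0.18, adjusted p = 0.0148). The call did not outlast the removal of G1 replicate 1 (0.49, adjusted p = 0.073), M-phase replicate 2 (0.53, adjusted p = 0.0882) or M-phase replicate 3 (0.48, adjusted p = 0.104). It was also lost with equal totals (0.20, adjusted p = 0.28) and under loess alignment (-0.03, adjusted p = 0.911). The peak 14.2 kb upstream changed by 0.18 (adjusted p = 0.607), and the 6 flanking peaks by 0.05 to 0.47, none of which passed. The strongest of these, at the start of the autophagy gene ATG101, had a change of 0.38 (adjusted p = 0.13), which passed only without G1 replicate 3 (0.45, adjusted p = 0.0453).

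MYC, the growth-promoting helix-loop-helix factor, rose about as much as other strong TSS peaks. Its TSS peak spans 3417 bp (chromosome 8, 128747316 to 128750732) and had scaled counts of 574.6, 449.2 and 561 in G1 and 1020, 1047 and 1228.9 in M-phase. The phases were well apart, with means of 528 ± 68.8 and 1099 ± 114 and a change of 1.05 (SE 0.15, adjusted p = 2.87e-08). The 853 TSS peaks with means from 512 to 1024 had a median change of 0.98, and loess alignment left MYC at -0.02. With the curve fitted over gene sums, MYC was at 0.14 (adjusted p = 0.216). A short flanking peak 2.1 kb before the main start had 17.9, 11.7 and 16 in G1 and 37.5, 30.9 and 45.2 in M-phase. All of its M-phase values were above those of G1, and its change of 0.98 (SE 0.28, adjusted p = 0.00415) was kept under loess alignment (1.11, adjusted p = 0.00123). The other MYC flanking peaks were weak and changed by -0.03 and 0.19, neither of which passed.

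IER2, a nuclear protein induced early by growth factors, had the largest rise of the group. The peak over its internal start (chr19:13262347-13265242) holds the printed CArG box and also overlaps starts of other annotated genes. It had scaled counts of 418.5, 353.9 and 417 in G1 and 1223.1, 1380.3 and 1291.5 in M-phase. Every M-phase library was above every G1 library, and the means were 396 ± 36.9 and 1298 ± 78.8, a ratio of 3.27. The change of 1.69 (SE 0.15, adjusted p = 7.33e-16) exceeded that of 99.3% of all TSS peaks, and 0.65 remained under loess alignment (adjusted p = 1.48e-08). The peak at the upstream start, which is shared with STX10 on the other strand, had 50.7, 39.8 and 56 in G1 and 106.3, 119.9 and 135.2 in M-phase. It was also higher in all M-phase libraries, by 1.18 (SE 0.22, adjusted p = 1.39e-05), and by 1.12 under loess alignment.

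DUSP1 was next in size. Its TSS peak (chr5:172197183-172199900), which includes the printed CRE and E-box, had scaled counts of 719.8, 566.4 and 636 in G1 and 1539.9, 1883 and 1864.1 in M-phase. The phases did not overlap, with means of 641 ± 76.8 and 1762 ± 193 and a change of 1.45 (SE 0.14, adjusted p = 9.4e-14). This was more than in 97.3% of all TSS peaks but within the quartiles of peaks with means from 1024 to 2048 (0.86 to 1.46), and 0.24 was left under loess alignment (adjusted p = 0.0154). ZFP36 had 178, 169.5 and 163 in G1 and 278.9, 326.3 and 475.9 in M-phase in its TSS peak (chr19:39897323-39898153). Its M-phase libraries were all higher but spread widely (360.4 ± 103 against 170.2 ± 7.52), and the change was 1.01 (SE 0.18, adjusted p = 6.81e-06), or 0.44 under loess alignment (adjusted p = 0.0173). For both genes the direction was the same under every scaling tried.

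IER3, an early response gene linked to survival signals (chr6:30710976-30712325), had no peak in its window. The nearest peaks in the table were 641 kb to its left and 527 kb to its right, so that the whole region around it was without peaks. IER3 lies in the major histocompatibility complex, and nothing is concluded here about its accessibility.

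**Figure D2:**
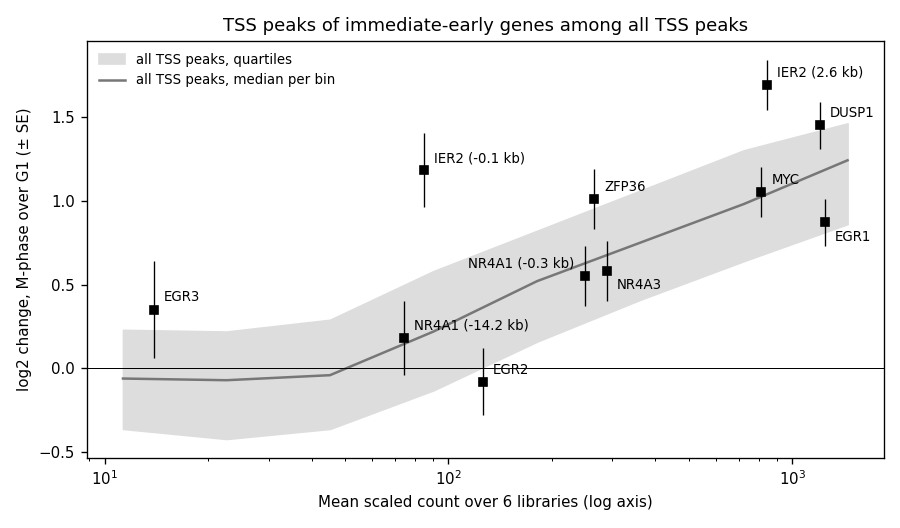
Change at each member TSS peak (log2, M-phase over G1, ± SE) against its mean scaled count over the 6 libraries (log axis), with the median (line) and quartiles (grey) of all TSS peaks in bins of strength. The 2 IER2 peaks stand farthest above the quartile range, whereas MYC is near the median, EGR1 at the lower edge and EGR2 below zero.

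The loess alignment changed the picture for the group as for all starts. Under it 4 of the 11 member TSS peaks were called higher (both IER2 peaks, DUSP1 and ZFP36) and 1 lower (EGR1), against 21.3% higher and 17.1% lower among all 15500 TSS peaks. With libraries scaled to equal totals in peaks, which moved the median of all peaks from 0.02 to -0.24, 6 of the 11 member TSS peaks were higher and 0 lower, against 29.4% higher and 17.3% lower among all TSS peaks. The TSS sums described further on were then higher for 5 of 9 genes in place of 7, and that of EGR2 was lower. Among 13224 protein-coding genes, 38.3% had a higher and 16.5% a lower TSS sum under this scaling.

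Among the flanking peaks of the group, calls were found at 5 of the 9 genes. Of the 24 that passed the filter on low values, 7 were higher in M-phase and 0 lower, with a median change of 0.41, against 13.5% higher and 13.1% lower among 36533 flanking peaks of all protein-coding genes (median 0.02). All M-phase libraries lay above G1 in 13 of the 24 and below G1 in 1, against 19.3% and 18.8% of those 36533 peaks. The remaining one, a weak NR4A3 peak 6.8 kb downstream (means of 7.27 and 8.17), was not tested. Many flanking peaks lie at the start of a neighbouring gene. Of 8 such peaks 4 were higher with a median change of 0.71, and of the 16 at no gene's start 3 were higher with a median of 0.33. Over all peaks, 43.2% at a transcript start were higher (median 0.39) and 6.51% at no start (median -0.05). Without G1 replicate 3 the count rose from 7 to 11. The remaining 17 flanking peaks had changes from -0.69 to 0.57, of which 14 were above zero.

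**Figure D3:**
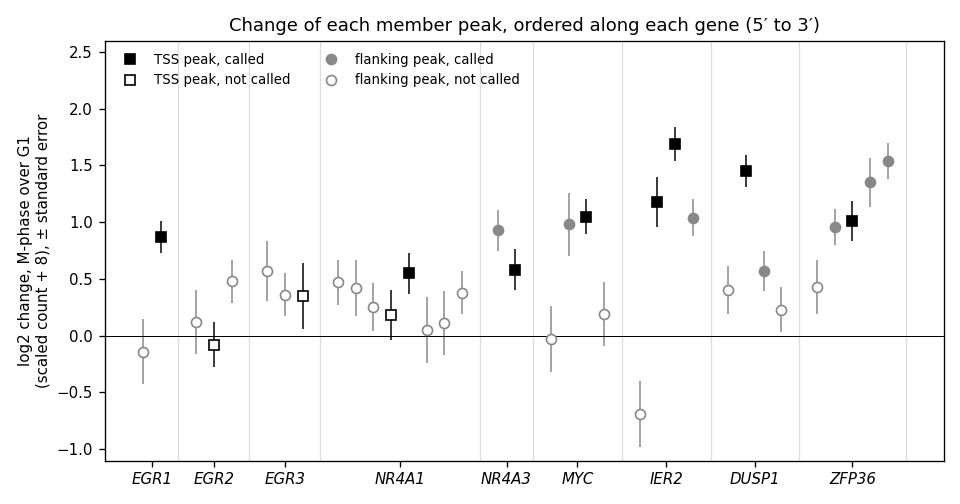
Change (log2, M-phase over G1, scaled count + 8) of the 35 tested peaks with standard errors, grouped by gene and ordered 5′ to 3′. Squares are TSS peaks and circles flanking peaks, filled where the adjusted p was under 0.05. Filled circles are found at NR4A3, MYC, IER2, DUSP1 and ZFP36, and none of the filled symbols lies below zero.

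The ZFP36 locus held the strongest flanking changes. The peak 6.0 kb downstream, at the start of PLEKHG2 (chr19:39902614-39904409), had 372.8, 274.2 and 353 in G1 and 912.5, 1037.9 and 981.6 in M-phase. All M-phase libraries were far above G1, and its change of 1.54 (SE 0.16, adjusted p = 3.15e-13) stands beside 1.01 at the ZFP36 start. The difference between these peaks was not tested. The peak 2.9 kb downstream, at the start of MIR4530, had 59.7, 35.2 and 60 in G1 and 105.5, 161.9 and 163.1 in M-phase. Its phases did not overlap, and the change was 1.35 (SE 0.22, adjusted p = 9.75e-07). The peak 3.6 kb upstream, at a non-coding RNA start, had 302.2, 293 and 386 in G1 and 552.8, 700.9 and 679.4 in M-phase. These values were also apart, with a change of 0.96 (SE 0.16, adjusted p = 1.72e-06). Under loess alignment the downstream peaks stayed higher (0.60 and 1.24), whereas the upstream peak did not pass (0.12, adjusted p = 0.443).

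At IER2 the peak 13.5 kb downstream (chr19:13273537-13275911), which lies at no annotated start, had 294.3, 272.7 and 305 in G1 and 591.2, 623 and 599.1 in M-phase. The libraries of each phase were close to each other, and the change was 1.04 (SE 0.16, adjusted p = 2.64e-07), or 0.23 under loess alignment (adjusted p = 0.121). The small IER2 peak 7.0 kb upstream was the one member peak with all M-phase values below those of G1. It had 27.8, 17.2 and 20 in G1 and 11.5, 9.5 and 9.6 in M-phase, a change of -0.69 that missed the threshold (adjusted p = 0.0624) but passed when the libraries were scaled to equal totals (-0.92, adjusted p = 0.00948). At DUSP1 the peak 5.6 kb downstream of the start had 217.7, 175.8 and 268 in G1 and 308.6, 284.3 and 398.9 in M-phase. Its change of 0.57 (SE 0.18) passed (adjusted p = 0.0112), but not without G1 replicate 2 (0.43, adjusted p = 0.0726) or M-phase replicate 3 (0.43, adjusted p = 0.157). It was also lost with equal totals (0.23, adjusted p = 0.215) and under loess alignment (-0.04, adjusted p = 0.866).

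The flanking peaks of EGR1 and EGR2 did not pass the test. The only one near EGR1, 7.9 kb upstream, was weak, with 16.9, 14.8 and 12 in G1 and 13.6, 11.5 and 12 in M-phase and a change of -0.14 (adjusted p = 0.766). The EGR2 peak 11.2 kb downstream, at the start of the thiol dioxygenase gene ADO, had 130.2, 143.8 and 203 in G1 and 213.4, 238.6 and 210.3 in M-phase. Its M-phase values were all above those of G1, by little for G1 replicate 3, and the change of 0.48 (SE 0.19) had an adjusted p of 0.0517. Without G1 replicate 3 it was 0.66 (adjusted p = 0.00181).

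**Figure D4:**
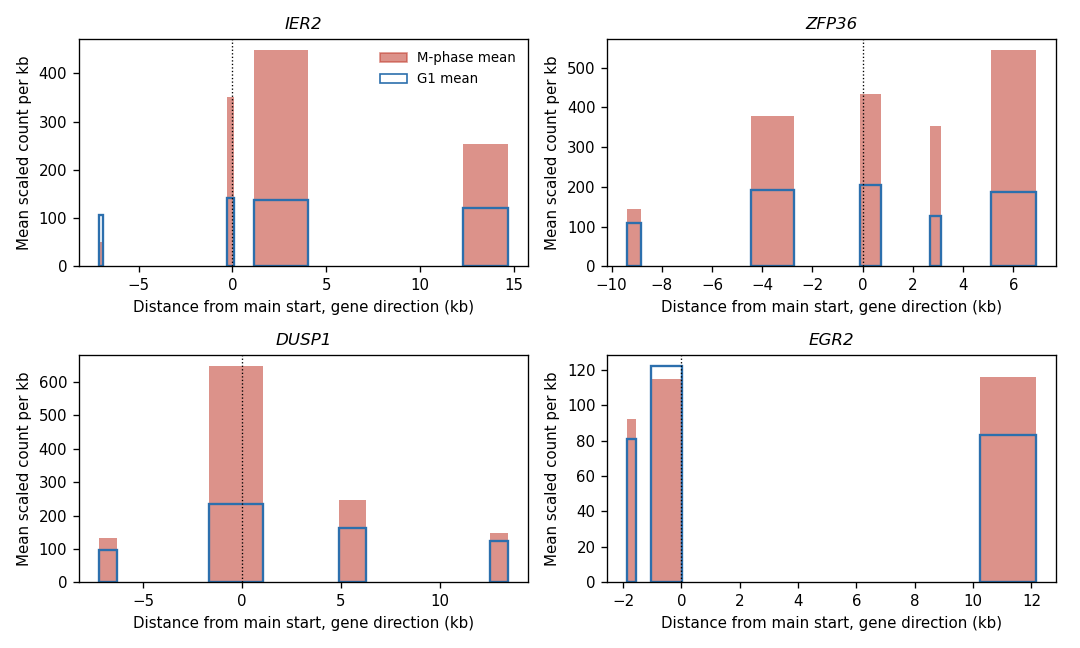
Mean scaled count per kb in the peaks of IER2, ZFP36, DUSP1 and EGR2 (red fill, M-phase; blue outline, G1; means of 3 libraries) against distance from the main start in the direction of the gene (kb, dotted line at the start). DUSP1 changes most at its start, ZFP36 across its locus with the highest M-phase value 6.0 kb downstream, and EGR2 hardly at its start.

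Changes at starts and flanks were compared within each gene after summing the scaled counts of its TSS peaks and of its flanking peaks. The TSS sum was higher in M-phase for 7 of the 9 genes (all but EGR2 and EGR3) and lower for 0, beside 56.0% of 13226 protein-coding genes with a higher and 5.76% with a lower TSS sum, and a median of 0.51. The flanking sum was higher for 8 of 9 genes (all but EGR1) and lower for 0, against 27.6% higher and 11.5% lower of 14892 genes. That count was fragile. It was 4 without G1 replicate 1 or M-phase replicate 2, beside 24.4% and 23% of all genes. It was 5 without G1 replicate 2 or M-phase replicate 3, beside 25.3% and 22.7%. When peaks at the start of another gene were left out it was 4, beside 10% of 12647 genes.

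The difference between both changes was then tested directly. The TSS rose more than the flanks at EGR1 (difference 1.01, SE 0.23, adjusted p = 0.000454), DUSP1 (0.99, SE 0.12, adjusted p = 2.04e-08) and IER2 (0.70, SE 0.12, adjusted p = 1.37e-05). This is 3 of 9 genes, beside 34.8% of 10250 protein-coding genes with a median difference of 0.29. Under loess alignment DUSP1 alone of these kept its call (0.51, adjusted p = 0.000648), with IER2 at 0.26 (adjusted p = 0.101) and EGR1 at -0.06 (adjusted p = 0.871). TSS sums and flanking sums were aligned apart, which removes a general difference between them. The median difference of all genes was then -0.02. The aligned values therefore do not measure the same difference as the main fit. In DUSP1 the share of the locus signal at the TSS was 62.6%, 60.5% and 58.6% in G1 and 73.7%, 78.4% and 73.8% in M-phase. In IER2 it was 59.3%, 57.6% and 59.3% in G1 and 68.8%, 70.3% and 70.1% in M-phase. Neither gene's shares overlapped between phases. For EGR1 the flanking sum is the single weak peak 7.9 kb upstream, and the TSS held 98.3% of the signal in G1 and 99.2% in M-phase.

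EGR2 went the other way, with a difference of -0.52 (SE 0.22, adjusted p = 0.0494), beside 8.97% of genes called in that direction. Most of its flanking sum (G1 mean 183) came from the peak at the ADO start (159), and with peaks at the start of another gene left out the difference was -0.20 (adjusted p = 0.619). Its TSS share was 46%, 43.6% and 36% in G1 and 33%, 32.5% and 33.6% in M-phase. The call lay at the threshold and held in the fit without G1 replicate 3 alone among those with 1 library left out, the adjusted p being 0.177 without G1 replicate 1, 0.112 without G1 replicate 2, and 0.107, 0.132 and 0.0832 without M-phase replicates 1, 2 and 3. The other 5 genes had differences from -0.32 (NR4A3, adjusted p = 0.107) to 0.38 (MYC, adjusted p = 0.137) that did not pass, and that of ZFP36 (-0.24, adjusted p = 0.173) passed without M-phase replicate 3 (-0.42, adjusted p = 0.0318). With peaks at the start of another gene left out, that of ZFP36 was 0.59 (adjusted p = 0.06). Under loess alignment, with TSS and flanking sums aligned apart, that of NR4A3 passed (-0.57, adjusted p = 0.00574).

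**Figure D5:**
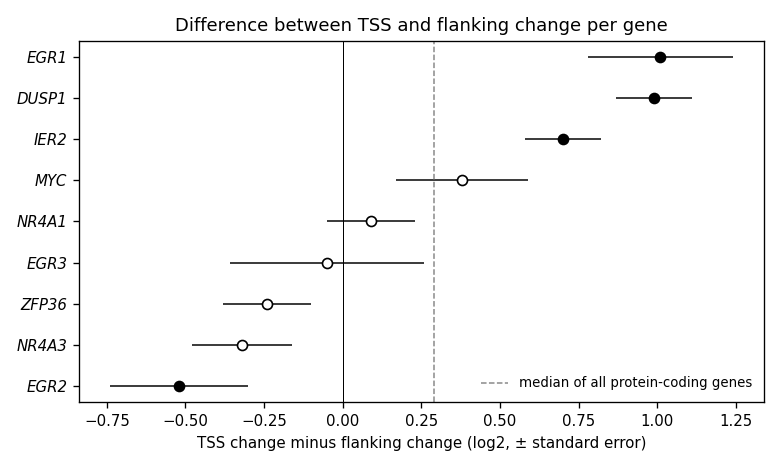
Difference between the TSS change and the flanking change of each gene (log2, ± standard error), filled where the adjusted p was under 0.05, with the median of all protein-coding genes (0.29) as a dashed line. EGR1, DUSP1, IER2 and, not called, MYC lie to the right of that line, and EGR2 lies farthest to the left.

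Other genes of the same pathways were examined by their summed TSS signal. Of 16 tested immediate-early transcription factors 14 were higher in M-phase and 0 lower, with a median change of 1.10 (EGR4 was not tested). The largest rises were at FOSL1, a FOS-related AP-1 subunit (242 ± 52.6 to 811 ± 77.6, 1.73, adjusted p = 2.57e-19), and KLF6, a Krüppel-like zinc finger factor (166 ± 42.1 to 554 ± 88.8, 1.71, adjusted p = 7.72e-18). Of 15 feedback genes of the ERK and p38 pathways 10 were higher and 0 lower (median 0.65), led by the ERK phosphatase DUSP5 (1.53, adjusted p = 2.44e-15) and the EGF receptor inhibitor ERRFI1 (1.47, adjusted p = 4e-15). In the MYC network 9 of 11 were higher and 0 lower (median 0.92), led by the MAX partners MNT (1.57, adjusted p = 1.95e-17) and MXD3 (1.19, adjusted p = 1e-10). Of 14 upstream factors 12 were higher and 0 lower (median 0.71), among them the SRF cofactor MRTFA (1.41, adjusted p = 4.86e-14). SRF stands in the first and the last list, and DUSP2 and MYCN were not tested. These counts stand beside the 56.0% of all protein-coding genes with a higher TSS sum, a share not matched for strength. Among single TSS peaks 60.4% were higher at a mean of at least 100, and 85.6% at a mean of at least 500. The median change was 0.75 for TSS peaks with means from 256 to 512 and 0.98 for those from 512 to 1024. Whether the lists differ from genes with equally strong starts was not tested. Under loess alignment 23.2% of all protein-coding genes had a higher TSS sum and 23.3% a lower one. The counts of the lists were then 9 higher and 1 lower for the transcription factors. They were 5 and 6 for the feedback genes (DUSP6, DUSP10, SPRY2, SPRY4, SPRED2 and RASA1 were lower). For the MYC network they were 5 and 1, and for the upstream factors 4 and 1.

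Another NR4A receptor, NR4A2, chosen for mention after its values were seen, had M-phase values at or below most G1 values. Its TSS sum was 957.3, 855.5 and 1296 in G1 and 833.7, 787.8 and 910.9 in M-phase. The phases overlapped, and the change of -0.27 (SE 0.16) did not pass (adjusted p = 0.138), but it was -1.23 under loess alignment (adjusted p = 2.2e-15).

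The composition of the member peaks is described without a test. TSS peaks had a median width of 1349 bp and a median ratio of observed to expected CpG of 0.80, and flanking peaks had 437 bp and 0.512. The AP-1 letters TGACTCA were in the central 200 bases of 5 of the 25 flanking peaks and 0 of the 11 TSS peaks, against 8.71% of all peaks, and none of these 5 peaks was called. CArG boxes lay in the central 200 bases of the EGR1 and MYC TSS peaks, against 0.924% of all peaks. The CRE letters were there in the larger IER2 peak and in 1 flanking peak of NR4A1, against 0.247% of all peaks.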

How the data were processed

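Per the labels and the study's methods, the authors trimmed reads (cutadapt), aligned them to hg19 with Bowtie, keeping 1 location for reads with up to 3, processed them with SAMtools and called peaks with MACS2 (versions not given in the sources used here). The deposited signal values are read counts per peak, scaled by the authors and rounded to 0.1, without mitochondrial reads, and an M-phase column does not keep its HiSeq and NextSeq runs apart. The deposited log2 ratio and its SD (a score) are the authors' own comparison and were not used. 0 columns of per-sample values were left out.

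Genes came from GENCODE release 44 lifted to hg19. Values were tested as log2(value + 8) with limma 3.58.1 (trended prior, two-sided, Benjamini-Hochberg) in R 4.3.3 over all peaks that passed the filter: at least 3 of 6 libraries had to hold the equivalent of 10 scaled counts for the median library, and all 6 together 15. Sums per gene and their difference were fitted likewise over all protein-coding genes. The fits were tested on simulated data with 200 changed features. Sequences were read with pysam 0.24.0. No counting intervals were given, since the number of reads behind the scaled values is not stated. With 3 against 3 libraries an exact permutation test cannot go below p = 0.1, so single values were not permuted.

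Every member was named, with its TSS peaks. Of the flanking peaks those that passed the test and the strongest of each gene were named, and of the other lists the genes with the largest called changes; the small IER2 peak 7.0 kb upstream was named after its values were seen. The members, lists and tests were chosen with earlier results of these data known. The alternatives were other scalings (TMM, equal totals, loess), a pseudocount of 1, other filters, a replicate block, other TSS definitions and leaving out each library. The marker PECAM1 was not analysed here. The chromatin fraction and input libraries were not analysed here. The value of 1 gene of the upstream list is not reported here.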

Additional observations from a re-analysis of the deposited data

How the results depend on the processing

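Loess alignment on peak strength changed most. It turned the TSS peaks of EGR1 (-0.39), MYC (-0.02), NR4A3 (-0.05) and NR4A1 at its main start (-0.03) below zero. The TSS sums of EGR1 (-0.14), NR4A3 (-0.06) and NR4A1 (-0.22) turned too, whereas that of MYC was 0.14 (adjusted p = 0.216). Also turned were the DUSP1 peak 5.6 kb downstream (-0.04) and the flanking sums of DUSP1 (-0.05) and NR4A1 (-0.13). So were the TSS minus flanking differences of EGR1 (-0.06) and MYC (-0.58, adjusted p = 0.0229). Under loess alignment 4 TSS peaks were higher and 1 lower, and 4 flanking peaks higher, beside 10.8% of all peaks higher and 13.6% lower. For the genes, 3 TSS sums were higher and 1 lower, 4 flanking sums higher, and 1 difference higher and 3 lower. Over all protein-coding genes, 23.2% of TSS sums were higher and 23.3% lower, and 18.7% of flanking sums higher and 19.7% lower. Of the differences, whose TSS and flanking sums were aligned apart, 14.7% were higher and 16.2% lower. The alignment assumes no overall change at any peak strength, and which scaling is right was not tested. Equal totals gave 6 higher TSS peaks, 1 lower flanking peak (TMM also 1), 5 higher and 1 lower TSS sums, 3 higher flanking sums and 0 lower differences. Over all peaks 25.1% were lower with equal totals and 16.7% with TMM. Over all genes equal totals gave 38.3% higher and 16.5% lower TSS sums, and 15.8% higher and 29% lower flanking sums. Of the differences 8.86% were lower. A pseudocount of 1, no filter, starts within 500 bp and leaving out peaks at other genes' starts also gave 0 lower differences. The last left 3 higher flanking peaks and 4 higher flanking sums, beside 10% of 12647 genes with a higher sum. With 1 library left out, higher TSS peaks numbered 6 to 8, higher flanking peaks 6 to 11, higher TSS sums 6 to 7, higher flanking sums 4 to 8, higher differences 3 to 3 and lower differences 0 to 1, and lower peaks or sums 0 to 0. Of 294 values of named features in these fits, 260 kept their side of the threshold, 30 lost it, 4 gained it and 0 changed direction.

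No sign of pairing by replicate number was seen. Same-numbered deviations correlated at 0.00594, -0.0101 and 0.0284, and different-numbered ones at -0.0475 to 0.0454. With 3 libraries per phase such values cannot exclude pairing. A replicate block gave 8 higher TSS peaks, 8 higher flanking peaks and 0 lower differences. An edgeR test had been planned for unscaled whole-number counts. It was not run, because the deposited values are scaled and rounded to 0.1, and no whole reads were recovered from them.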
